A study of Mus musculus with 65 samples.

Results

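Enhancers that stand alone and far from the TSS regions the authors deposited made up 2902 of the 8794 enhancer regions (33.0%) deposited for mouse E14TG2a embryonic stem cells. They were chosen by position only. A region was kept when the midpoint of the nearest Ensembl transcription start site (TSS) region lay more than 50000 bp from its own midpoint, and when it was in no chain of 3 or more enhancers with successive midpoints at most 12500 bp apart. The second condition removed no region, since no 2 neighbouring midpoints were closer than 13067 bp. The rule thus split the members from the 5892 other enhancers (67.0%) by distance to a TSS alone. The 2 sets differed in other ways too. The others came as near as 8 bp to a TSS region, 167 held a RefSeq start, and 50.2% lay in a coding gene, against 42.5% of the members. The members lay between 50.02 and 1174 kb from the nearest TSS region, with a median of 106.2 kb, and 574 of them lay over 200 kb and 68 over 500 kb away. The median distance to the next enhancer was 83.95 kb. Of the members, 29 nevertheless hold the start of a RefSeq transcript in their central 1 kb. The sources used here do not say how the authors drew up the enhancer list.

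The study followed how accessible chromatin returns after DNA replication with repli-ATAC-seq, in which new DNA is labelled with the thymidine analogue EdU, open chromatin is cut by the transposase Tn5, and the EdU-labelled fragments are pulled out and sequenced. E14TG2a is a line of strain 129/Ola, grown on gelatin with serum and LIF, and all groups come from this 1 line. Every labelled group received 20 uM EdU for 10 min. Cells were taken at once (nascent) or after a chase in 10 uM thymidine of 30 min, 1 h or 2 h (mature), and unlabelled steady-state cells were also profiled. In the inhibitor experiment, triptolide, DRB or the solvent DMSO was added 2 h before EdU, and each drug was followed in nascent and 2 h mature chromatin. Neither the doses nor the presence of the drugs in the chase is stated in the labels. Each of those 6 groups has 3 libraries of the EdU-bound fragments and 3 of the unbound fragments, which come mostly from DNA that was not replicated during the pulse. A further pair of groups, nascent and 2 h mature, had 100 EdU-labelled Drosophila S2 cells added to each sample, with 2 libraries each. Occupancy of RNA polymerase II phosphorylated at serine 5 (S5P) was available as 1 combined peak list.

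Enhancers are short stretches of DNA bound by transcription factors that raise the transcription of genes that may lie far away, and their nucleosome-poor core makes them accessible to Tn5. Passage of the replication fork removes bound factors and nucleosomes, and new nucleosomes are laid down behind it before factors bind again. RNA polymerase II starts transcription at enhancers as well as at promoters. Triptolide blocks the start of transcription through the TFIIH subunit XPB and leads to loss of the polymerase, while DRB inhibits the kinase CDK9 and holds back the release of paused polymerase into elongation.

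Sequence was available for these 29 members with a RefSeq start, as 37 promoter sequences of 250 bases before to 50 after the start (RefSeq, build GRCm38.p6). Of these, 34 belong to long non-coding RNAs and 3 to coding genes (Nhsl1, Gcnt2 and Lpar1), and 5 of them are overlapping starts of Gm35835. The 4 shown here were picked after their values were seen, as members whose accessibility bears on the results below. Capitals mark matches to any of the motifs searched, on either strand. The 2410021H03Rik start lies in the member at chr17:69277001-69278000, which had the largest gain between nascent and 2 h chromatin among these members. The Gm46422 start lies in chr13:63094501-63095500, inside Aopep, the one with the largest fall with triptolide. The Gm36555 start is in chr15:25332001-25333000, 81.51 kb from the start of Basp1, with the highest level at 2 h, and the Gm33388 start in chr1:119305001-119306000, 116.9 kb from the start of Inhbb, holds matches to 3 of the motifs.
2410021H03Rik (minus strand, chr17:69277157-69277456): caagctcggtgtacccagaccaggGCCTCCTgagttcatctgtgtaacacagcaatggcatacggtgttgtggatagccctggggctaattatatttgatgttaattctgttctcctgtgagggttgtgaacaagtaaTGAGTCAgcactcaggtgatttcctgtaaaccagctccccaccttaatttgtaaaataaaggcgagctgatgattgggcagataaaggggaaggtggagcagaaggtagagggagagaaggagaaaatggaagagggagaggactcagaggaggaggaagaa
Gm46422 (minus strand, chr13:63094702-63095001): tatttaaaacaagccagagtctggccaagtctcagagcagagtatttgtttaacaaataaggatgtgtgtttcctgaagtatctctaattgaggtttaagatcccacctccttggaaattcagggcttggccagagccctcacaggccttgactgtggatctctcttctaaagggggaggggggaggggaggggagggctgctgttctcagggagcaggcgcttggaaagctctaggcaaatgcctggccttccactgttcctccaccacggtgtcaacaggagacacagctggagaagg
Gm36555 (plus strand, chr15:25332095-25332394): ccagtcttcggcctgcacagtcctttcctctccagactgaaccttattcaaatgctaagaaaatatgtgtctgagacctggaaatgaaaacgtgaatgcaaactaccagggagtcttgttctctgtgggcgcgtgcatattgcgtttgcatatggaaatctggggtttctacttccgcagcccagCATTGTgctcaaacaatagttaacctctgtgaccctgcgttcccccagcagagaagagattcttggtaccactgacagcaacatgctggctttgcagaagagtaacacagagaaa
Gm33388 (plus strand, chr1:119305493-119305792): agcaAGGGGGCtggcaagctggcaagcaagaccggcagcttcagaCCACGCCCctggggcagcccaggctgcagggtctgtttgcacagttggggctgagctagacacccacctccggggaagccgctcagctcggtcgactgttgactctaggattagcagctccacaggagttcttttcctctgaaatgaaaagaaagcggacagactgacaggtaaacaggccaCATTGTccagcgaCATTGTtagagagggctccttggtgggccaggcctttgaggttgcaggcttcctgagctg

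The first sequence has a match to the AP-1 motif TGANTCA and to a part of the CTCF motif, AGGNGGC. The Gm46422 promoter has none of the motifs, the Gm36555 promoter has 1 match to the SOX motif CATTGT, and the Gm33388 promoter has 2 matches to CATTGT, 1 to the KLF motif GGGNGTGG and 1 to AGGNGGC. The SOX letters CATTGT were in 12 of the 37 promoters (32.4%), which fall in 8 of the 29 regions, against 12.6% of all 32851 RefSeq promoters. The POU octamer ATGCAAAT was in 4 (10.8%, against 1.74%), GGGNGTGG in 4 (10.8%, against 17.6%) and TGANTCA in 4 (10.8%, against 7.81%). AGGNGGC was in 16 promoters (43.2%, against 29.3%), but these fall in 11 of the 29 regions, since overlapping starts share sequence. The TEAD motif GGAATG was in 3 and the STAT motif TTCCNGGAA in 2, and neither the SOX-POU motif TGTNATGCA, which shares bases with the octamer, nor the ESRRB motif TCAAGGTCA was in any. A match is a run of letters and does not show binding. Median GC content was 47.67% in these promoters and 52.67% in all RefSeq promoters.

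Totals behind the inhibitor tables were 1299334 to 5554604 reads in the 18 EdU libraries and 2351201 to 14363372 reads in the 18 unbound libraries. A member's central 1 kb held a median of 1 to 3 reads in a nascent EdU library, 9 in a 2 h DMSO EdU library and 7 to 35 in an unbound library, so single members are measured coarsely in nascent chromatin. Levels are given as RPM, the reads in that 1 kb window scaled to the library's total. Promoters of embryonic stem cell markers were accessible in 6 of 6 cases, at 5.55 to 12.4 RPM in unbound 2 h DMSO libraries. Steady-state peaks also covered 2 of 4 primitive endoderm promoters (0.109 to 4.19 RPM, with Gata4 and Dab2 without a peak), 3 of 3 of trophectoderm (0.785 to 7.55 RPM), 4 of 5 of fibroblasts (0.756 to 11.9 RPM) and 5 of 5 of neural and germ layer genes (3.36 to 6.59 RPM). An accessible promoter does not show expression, and the part of other cell types in the results was not tested.

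Few solitary far enhancers had a peak just after replication, and most had one at 2 h. The central 1 kb of 345 members (11.9%, 95% Wilson interval 10.8 to 13.1) overlapped a peak of the nascent list. The number was 1186 (40.9%) at 30 min, 1698 (58.5%) at 1 h, 1999 (68.9%, 67.2 to 70.5) at 2 h and 2350 (80.98%) in steady state. Among the enhancers within 50 kb of a TSS the shares were 25.6% in nascent chromatin, 55.2% at 30 min, 65.1% at 1 h, 71.2% at 2 h and 84.0% in steady state. The 2 sets were thus far apart in the nascent list and close at 2 h. Of the 2350 members with a steady-state peak, 14.7% were in the nascent list, 50.3% in the 30 min list, 71.7% at 1 h and 83.2% at 2 h. Of the nearer enhancers with one, the shares were 30.3%, 65.2%, 77.0% and 84.1%. Each list is 1 combined call per group and the lists grow with time, from 47341 peaks in nascent chromatin through 72247, 87051 and 106983 to 166636 in steady state, so the increase within 1 set of enhancers cannot be told apart from the longer lists, and no test over replicates could be made.

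**Figure D1:**
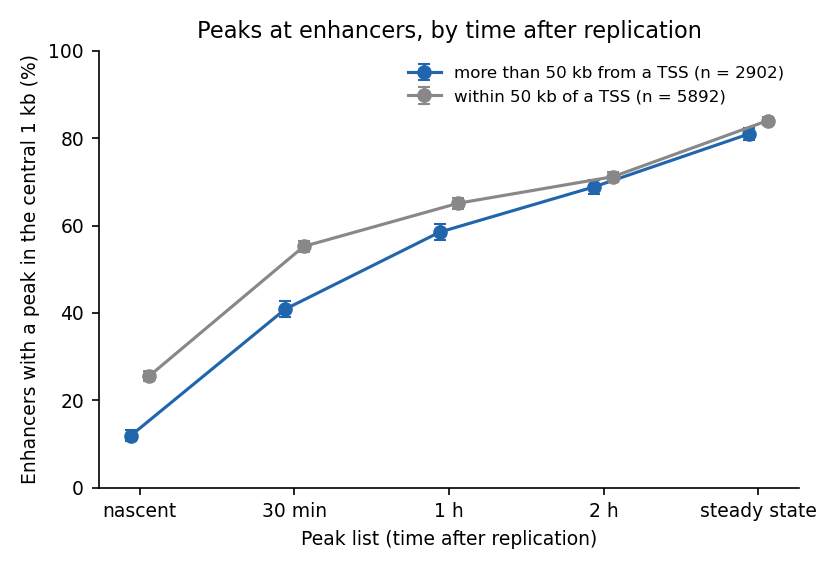
Share of enhancers (percent, vertical axis) whose central 1 kb overlaps a peak of each combined list (horizontal axis, nascent to steady state), for the solitary far enhancers and the enhancers within 50 kb of a TSS, with 95% Wilson intervals. The members start at 11.9% against 25.6% in the nascent list and come to 68.9% against 71.2% at 2 h.

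By the first list in which they appeared, 345 members belonged to the nascent list, 847 (29.2%) to 30 min, 556 (19.2%) to 1 h, 347 (11.96%) to 2 h and 310 (10.7%) to steady state, while 497 (17.1%) were in none of the 5. The order was not strict, since 182 members (6.27%) were in one list and missing from a later one. The levels in the DMSO EdU libraries of the inhibitor experiment, which are other libraries than those behind the lists, followed the same order. In 2 h DMSO EdU libraries the mean level was 11.2 RPM for members first seen in the nascent list, 6.26 RPM for 30 min, 3.39 for 1 h, 1.98 for 2 h, 1.25 for steady state and 0.556 RPM for members in no list. In nascent DMSO EdU libraries it was 2.57, 1.27, 0.773, 0.562, 0.558 and 0.447 RPM for the same 6 classes, with the 2 h and steady-state classes nearly level. The order broke in nascent triptolide EdU libraries, at 0.424 RPM for the 2 h class, 0.525 for steady state and 0.458 for no list. The members that entered the lists first were therefore also the most accessible in both nascent and mature chromatin.

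S5P peaks covered 17 members (0.586%) and 151 of the enhancers within 50 kb (2.56%). These 17 were among the most accessible members, with a mean of 14.4 RPM in 2 h DMSO EdU libraries and 3.45 RPM in nascent DMSO EdU libraries, and 14 of them were in the nascent list.

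Averaged over all 2902 members, accessibility was higher in every 2 h DMSO library than in every nascent DMSO library. The mean level was 4.33, 4.54 and 3.96 RPM in 2 h DMSO EdU libraries (4.27 ± 0.293, SD, n = 3), against 0.989, 1.07 and 1.03 RPM in nascent DMSO EdU libraries (1.03 ± 0.0400, SD, n = 3). The 2 groups did not overlap, and their ratio was 4.16, compared with 3.36 for the enhancers within 50 kb. In bulk chromatin, fewer cells with an open site and less opening per cell cannot be told apart. The DNA 5 to 10 kb from the centres stayed at 0.434 to 0.496 RPM in the 18 EdU libraries, and the centre stood 9.24 ± 0.572 times above its flank at 2 h and 2.32 ± 0.0824 times in nascent chromatin (SD, n = 3 each). Within a library, members were at 0.871 to 0.883 times the level of the enhancers within 50 kb in 2 h DMSO EdU chromatin, 0.692 to 0.722 times in nascent DMSO EdU chromatin and 0.819 to 0.841 times in unbound DMSO chromatin. RPM depends on what else is in a library. In windows away from peaks the mean was 0.182 to 0.209 RPM in 2 h DMSO EdU libraries and 0.305 to 0.307 RPM in nascent DMSO EdU libraries, and the part of this shift in single calls was not tested beyond the scaling to it described below.

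**Figure D2:**
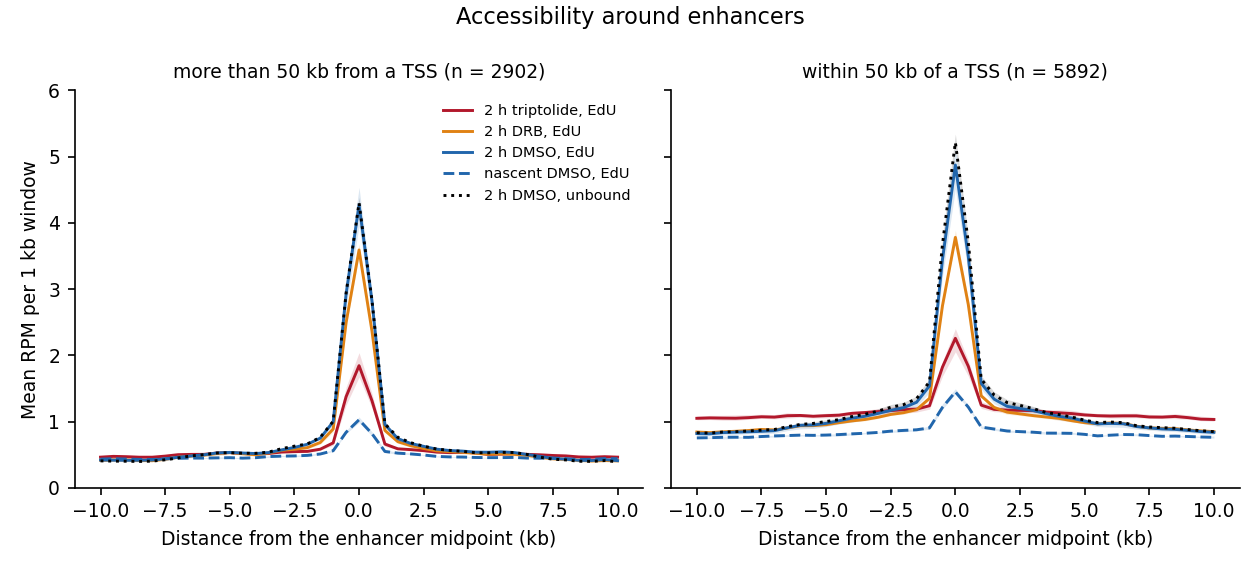
Mean RPM per 1 kb window (vertical axis) against distance from the enhancer midpoint in kb (horizontal axis), over the 2902 solitary far enhancers (left) and the 5892 enhancers within 50 kb of a TSS (right), as the mean of the 3 libraries of 5 groups with a band from the lowest to the highest library. At the members, the 2 h DMSO EdU line reaches 4.27 RPM and lies over the unbound line at 4.30 RPM, the 2 h triptolide line reaches 1.84 RPM and the nascent DMSO line 1.03 RPM, over flanks of about the same level.

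For single members, limma on log2(RPM + 1) with Benjamini-Hochberg adjustment over all 8774 enhancers tested called 1907 of the 2893 members tested higher at 2 h than in nascent DMSO chromatin and 19 lower. Over all enhancers, 63.6% were called higher and 0.855% lower. The median member difference was 1.12 (log2). The call rate differed by class of first list. These classes also differ in mean level, from 11.2 to 0.556 RPM in 2 h DMSO EdU libraries, so call rate and level cannot be told apart. The calls were 324 of 345 for members first seen in nascent chromatin, 761 of 847 for 30 min, 457 of 556 for 1 h and 224 of 347 for 2 h. They were 106 of 310 for steady state and 35 of the 488 tested in no list, where 63.6% of all enhancers were called higher. These counts depend on the scale. With TMM scaling over the enhancers, which sets the average enhancer equal between libraries, 172 members were called higher and 185 lower, and the median member difference was 0.15 against 1.72 in the same test with library totals, whereas scaling to windows away from peaks gave 2292 higher.

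The largest gain was at chr2:134456001-134457000, 97.93 kb from the start of Hao1, a peroxisomal hydroxyacid oxidase gene. It stood at 16.2, 20.1 and 13.6 RPM in 2 h DMSO EdU libraries and at 0.577, 0.505 and 0.529 RPM in nascent DMSO EdU libraries. The groups lay far apart, and the difference was 3.50 ± 0.32 (log2 of RPM + 1, SE, limma adjusted p = 2.316e-19). At chr8:4934001-4935000, 154.8 kb from the start of Shcbp1, the values were 21.8, 29.9 and 19.9 RPM at 2 h and 0.577, 1.51 and 1.85 RPM in nascent chromatin (3.45 ± 0.30, limma adjusted p = 1.788e-20). The third, chr9:30597501-30598500 near Snx19, rose by 3.27 ± 0.34 (log2, SE, limma adjusted p = 6.314e-16). Genes are named throughout as landmarks of position, without any claim on the gene an enhancer acts on. In the other direction, chr15:96166001-96167000 near Arid2, which is in none of the peak lists, fell by 1.02 on the log2 scale (SE 0.31, limma adjusted p = 0.002741).

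The member at chr17:69277001-69278000, whose 2410021H03Rik promoter is printed above, had 14.4, 16.2 and 11.3 RPM in 2 h DMSO EdU libraries and 1.73, 0 and 2.12 RPM in nascent DMSO EdU libraries. It had no overlap between groups, and its difference was 2.86 ± 0.33 (log2, SE, limma adjusted p = 7.688e-14). Of the 29 members with a RefSeq start, 24 were called higher at 2 h, where 63.6% of all enhancers were. Against the same 63.6%, members outside genes were called higher in 970 of 1369 tested (median 1.27) and members in a coding gene in 754 of 1234 (median 0.96). Of the 71 tested on the X chromosome, 55 were called higher.

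The spike-in libraries gave a second set of samples for the same contrast, as log2 values over 5 kb regions with a scaling that the labels do not describe. The mean over members was 5.61 and 5.51 in 2 h libraries, against 3.64 and 4.43 in nascent libraries. The groups did not overlap, and the 2 nascent libraries differed from each other more than the 2 h libraries did. limma called 1854 of 2900 members higher at 2 h and 6 lower, where 60.3% of all enhancers were called higher and 0.353% lower, and the median member difference was 1.61 (log2). In both experiments 1559 members were called higher. They are 81.8% of the calls of the inhibitor experiment's DMSO libraries, where the spike-in test called 63.9% of all members it tested. They are 84.1% of the spike-in calls, where the DMSO libraries' test called 65.9% of all members it tested. Overlap beyond these rates was not tested. With 2 libraries a group, the count rested on both 2 h libraries, since without 2 h replicate 1 no member was called higher, and without 2 h replicate 2 none was either. Centring each library on its median enhancer gave 815 higher and 443 lower. The largest gain was at chr13:15822001-15823000 near Inhba, an activin subunit gene, with log2 values of 7.46 and 7.23 at 2 h and 3.93 and 1.71 in nascent chromatin, a difference of 4.53 (limma adjusted p = 2.346e-14).

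Unbound chromatin showed how accessible the members were in DNA not made during the pulse. In DMSO the unbound mean was 4.32, 4.39 and 4.20 RPM at 2 h and 4.24, 4.36 and 4.32 RPM in nascent samples. The groups overlapped, and limma called 0 members higher and 0 lower between them (0.0% of all enhancers in either direction, 147 members with an unadjusted p under 0.05, and 0 members by limma-voom on recovered reads). In nascent DMSO samples, the EdU level was 0.239 times the unbound level, and 2050 of 2899 members were called lower in EdU than in unbound chromatin and 39 higher, where 70.5% of all enhancers were called lower and 1.47% higher. With TMM scaling over the enhancers the split was 292 lower and 353 higher.

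At 2 h in DMSO, the mean EdU level was 0.993 times the unbound level. limma called 0 members higher and 0 lower (0.0% of all enhancers in either direction), with 268 members at an unadjusted p under 0.05. limma-voom called 2 lower and 2 higher with library totals, and 2 lower and 14 higher with TMM. The median member difference was -0.03 (log2) with a median SE of 0.28. A call after adjustment needs a difference well above its SE, so differences of single members of this size and larger could have been missed. The largest nascent deficit was at chr4:153633001-153634000 near Ajap1, with 0.577, 0 and 0.793 RPM in nascent DMSO EdU libraries and 14.1, 21.3 and 15.3 RPM in unbound nascent DMSO libraries. These groups were far apart and differed by -3.64 ± 0.28 (log2, SE, limma adjusted p = 1.331e-17).

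The mature level of the members was lowest with triptolide. At 2 h the mean was 2.04, 1.82 and 1.67 RPM in triptolide EdU libraries (1.84 ± 0.186, SD, n = 3), against 4.33, 4.54 and 3.96 RPM in DMSO EdU libraries, a ratio of 0.432 with no overlap. For the enhancers within 50 kb the ratio was 0.463. With each centre set over its flank the order turned round, at 0.408 for the members and 0.388 for the nearer enhancers. limma called 1423 of 2893 members lower with triptolide and 48 higher, where 47.6% of all enhancers were called lower and 2.52% higher, with a median member difference of -0.75 (log2). With TMM scaling over the enhancers the split was 265 lower and 258 higher, and with scaling to windows away from peaks 1916 were lower. By first list, 244 of 345 nascent, 580 of 847 30 min, 338 of 556 1 h, 154 of 347 2 h and 76 of 310 steady-state members were called lower, and 31 of the 488 tested that were in no list. Of the 48 called higher, 28 were in no list. Here too the classes differ in level, so call rate and level cannot be told apart.

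**Figure D3:**
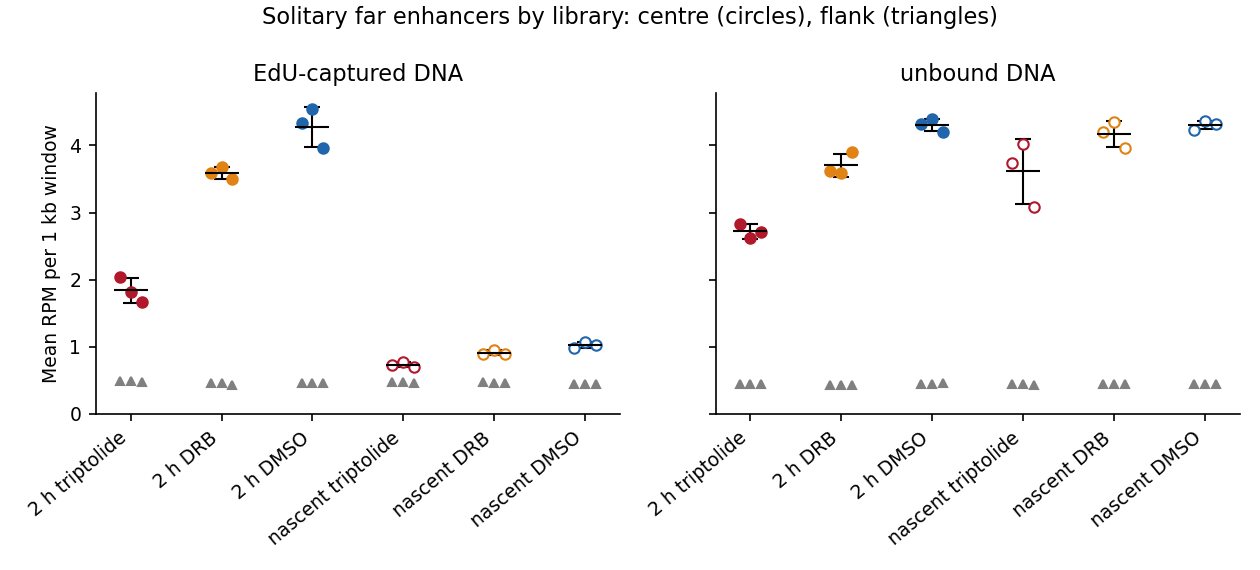
Mean RPM per 1 kb window (vertical axis, from 0) over the 2902 solitary far enhancers in each library of the inhibitor experiment (horizontal axis, by group), with EdU libraries on the left and unbound libraries on the right. Circles are centres, grey triangles flanks at 5 to 10 kb, and bars the mean ± SD of 3 libraries; the 2 h triptolide EdU libraries sit between 1.67 and 2.04 RPM, below the DRB libraries at 3.50 to 3.68 and the DMSO libraries at 3.96 to 4.54.

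The largest fall at 2 h was at chr4:145104501-145105500, within Vps13d, a lipid transfer protein gene. It stood at 1.44, 1.86 and 1.33 RPM in 2 h triptolide EdU libraries and 14.1, 20.9 and 14.7 RPM in 2 h DMSO EdU libraries. The difference was -2.77 ± 0.34 (log2, SE, limma adjusted p = 1.665e-11), and no library of one group reached the other. The member at chr14:48504501-48505500 near Tmem260 had 0.576, 0.621 and 0 RPM with triptolide and 7.05, 8.63 and 6.91 RPM with DMSO (-2.64, limma adjusted p = 8.751e-10). At chr6:13748001-13749000 near Bmt2 the difference was -2.59 (log2, limma adjusted p = 2.987e-10). The Gm46422 member, chr13:63094501-63095500, stood at 0.864, 1.86 and 0.532 RPM with triptolide and 10.7, 10.4 and 10.8 RPM with DMSO, a difference of -2.53 ± 0.35 (log2, SE, limma adjusted p = 6.536e-10). Of the 29 members with a RefSeq start, 22 were called lower and none higher (47.6% and 2.52% of all enhancers), with a median of -1.30 (log2).

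The largest increase with triptolide was at chr8:78580501-78581500 near Slc10a7, with 2.59, 7.45 and 3.72 RPM in 2 h triptolide EdU libraries and 0.307, 0.719 and 0.553 RPM in 2 h DMSO EdU libraries. The triptolide libraries were all higher and differed among themselves by more than 2 RPM, and the difference was 1.79 (log2, limma adjusted p = 2.207e-05).

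In nascent chromatin the median member difference with triptolide was -0.15 on the log2(RPM + 1) scale, against -0.75 at 2 h. Its size depended on the scale. The nascent median was -0.28 with log2(RPM + 0.25), and limma-voom gave -0.48 with library totals and -0.03 with TMM scaling. With each centre set over its flank, the nascent ratio of triptolide to DMSO was 0.673, against 0.408 at 2 h. The mean was 0.731, 0.767 and 0.694 RPM in nascent triptolide EdU libraries, against 0.989, 1.07 and 1.03 RPM in nascent DMSO EdU libraries, a ratio of 0.711 without overlap. limma called 63 members lower and 4 higher, where 3.12% of all enhancers were called lower and 0.239% higher, and 389 members had an unadjusted p under 0.05. Of the 63, 45 were among the 345 members of the nascent list, the class with most reads. The count was 21 without DMSO replicate 2, 41 without DMSO replicate 3, and 30, 32 and 28 without triptolide replicates 1, 2 and 3, and TMM scaling gave 0 lower and 1 higher. The member at chr10:19207501-19208500, 148.3 kb from the start of Olig3, a helix-loop-helix factor gene, had 1.39, 0.453 and 0.360 RPM with triptolide and 6.34, 4.54 and 3.97 RPM with DMSO, a difference of -1.81 ± 0.31 (log2, SE, limma adjusted p = 0.0001464). At chr7:37553501-37554500, within Zfp536, the values were 0, 0.905 and 0.720 RPM with triptolide and 3.46, 2.52 and 4.23 RPM with DMSO (-1.55, limma adjusted p = 0.001756), and this member also fell at 2 h, by 2.58 on the log2 scale.

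Members still gained accessibility between nascent and 2 h chromatin in triptolide samples, and fewer passed the test than in DMSO samples. The mean went up 2.53 times with triptolide and 4.16 times with DMSO. limma called 805 members higher and 5 lower in triptolide (27.4% and 0.205% of all enhancers), with a median of 0.43 (log2), and 142 higher and 62 lower with TMM scaling. The largest gain was at chr6:26301001-26302000, 492.5 kb from the start of Pot1a, with 11.8, 9.93 and 9.84 RPM at 2 h and 0.695, 0 and 1.08 RPM in nascent triptolide chromatin (2.92, limma adjusted p = 2.314e-15).

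The difference itself, the triptolide effect at 2 h minus that in nascent chromatin, was called negative for 304 members and positive for 4, where 8.64% of all enhancers were called negative and 0.228% positive. The median member difference of effects was -0.56 (log2) with a median SE of 0.49. This count moved with the settings, from 2 with TMM scaling and 8 with log2(RPM + 0.25) to 912 with scaling to windows away from peaks. It was 182 without nascent DMSO replicate 1, 181 without nascent triptolide replicate 2, 186 and 141 without 2 h DMSO replicates 1 and 2, and 184 and 137 without 2 h triptolide replicates 2 and 3. The largest was at chr17:51262501-51263500 near Tbc1d5, with 0.288, 0.310 and 1.06 RPM in 2 h triptolide and 4.29, 7.55 and 7.47 RPM in 2 h DMSO libraries, and 0.348, 0.453 and 1.26 RPM in nascent triptolide and 0.577, 0 and 0 RPM in nascent DMSO libraries. Only the 2 h DMSO libraries stood apart, and the difference of effects was -2.76 ± 0.52 (log2, SE, limma adjusted p = 0.000394). Its nascent DMSO values were at or near 0, and its highest nascent triptolide value, 1.26 RPM, lay above all of them. The part of low nascent levels in the difference of effects was not tested. In the opposite direction, chr3:34748001-34749000, 98.28 kb downstream of the start of the pluripotency gene Sox2 and in no peak list, had 2.02, 2.79 and 2.66 RPM in 2 h triptolide, 0, 0.360 and 0.277 RPM in 2 h DMSO, and 0.360 to 1.39 RPM in the nascent libraries of both treatments (1.69 ± 0.49, SE, limma adjusted p = 0.01942).

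The mean level with DRB lay between those with triptolide and with DMSO. At 2 h the mean was 3.59, 3.68 and 3.50 RPM in DRB EdU libraries (3.59 ± 0.0902, SD, n = 3), against 4.33, 4.54 and 3.96 RPM in DMSO EdU libraries, a ratio of 0.840, and the groups did not overlap. For the enhancers within 50 kb the ratio was 0.776. limma called 103 members lower and 17 higher, where 4.57% of all enhancers were called lower and 0.479% higher. Leaving out 1 library brought the lower count to 29, 23 and 53 without DMSO replicates 1, 2 and 3, and to 38, 55 and 40 without DRB replicates 1, 2 and 3. TMM scaling turned the split to 28 lower and 100 higher, log2(RPM + 0.25) gave 0 lower and scaling to windows away from peaks 434. At chr2:130958501-130959500 near Atrn, 2 h DRB libraries had 0, 0.373 and 0.290 RPM and 2 h DMSO libraries 2.76, 5.39 and 3.32 RPM (-1.96, limma adjusted p = 0.0001534). At chr6:107052001-107053000 near Crbn, the gene of cereblon, 2 h DRB libraries had 6.99, 5.598 and 5.80 RPM, against 0.307, 1.08 and 0.277 RPM in 2 h DMSO libraries. It was the largest increase, at 2.23 ± 0.36 (log2, SE, limma adjusted p = 8.92e-06), and the same member was called higher in unbound 2 h DRB chromatin, by 1.27 (log2, limma adjusted p = 0.0002148).

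In nascent chromatin the mean was 0.899, 0.955 and 0.890 RPM with DRB and 0.989, 1.07 and 1.03 RPM with DMSO. The ratio was 0.890 for the members and 0.749 for the enhancers within 50 kb. With each centre set over its flank the ratios were close, at 0.853 for the members and 0.866 for the nearer enhancers. limma called 24 members lower and 8 higher (1.36% and 0.148% of all enhancers), and the lower count was 11 without DMSO replicate 1, 4 without DMSO replicate 2 and 0 in a fit of these groups alone. The largest fall was at chr16:30740501-30741500 near Fam43a, where all 3 nascent DRB libraries had 0 reads and nascent DMSO libraries had 4.04, 1.51 and 1.59 RPM (limma adjusted p = 0.004931).

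Between nascent and 2 h chromatin, 1628 members were called higher in DRB and 25 lower (56.9% and 0.638% of all enhancers), with a median of 0.90 (log2), and 183 higher and 202 lower with TMM scaling. The member at chr3:141849001-141850000, within the BMP receptor gene Bmpr1b, rose most, with 18.8, 23.1 and 24.6 RPM at 2 h and 2.84, 0 and 2.42 RPM in nascent DRB chromatin (3.29, limma adjusted p = 2.161e-19). For the difference of DRB effects between 2 h and nascent chromatin, 1 member was called negative and 0 positive (0.0342% and 0.0% of all enhancers), with 301 at an unadjusted p under 0.05. Its median was -0.13 (log2) with a median SE of 0.49. That 1 call ran from 0 without nascent DMSO replicate 1 or 2 h DRB replicate 1 or 2 to 4 without nascent DMSO replicate 3 or nascent DRB replicate 3. It was at chr15:92703501-92704500 near Pdzrn4, with 0, 0 and 0.870 RPM in 2 h DRB and 1.84, 3.60 and 4.15 RPM in 2 h DMSO libraries, against 1.42, 0.770 and 0.907 RPM in nascent DRB and 0, 0.505 and 0.529 RPM in nascent DMSO libraries (-2.33 ± 0.47, SE, limma adjusted p = 0.004487).

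**Figure D4:**
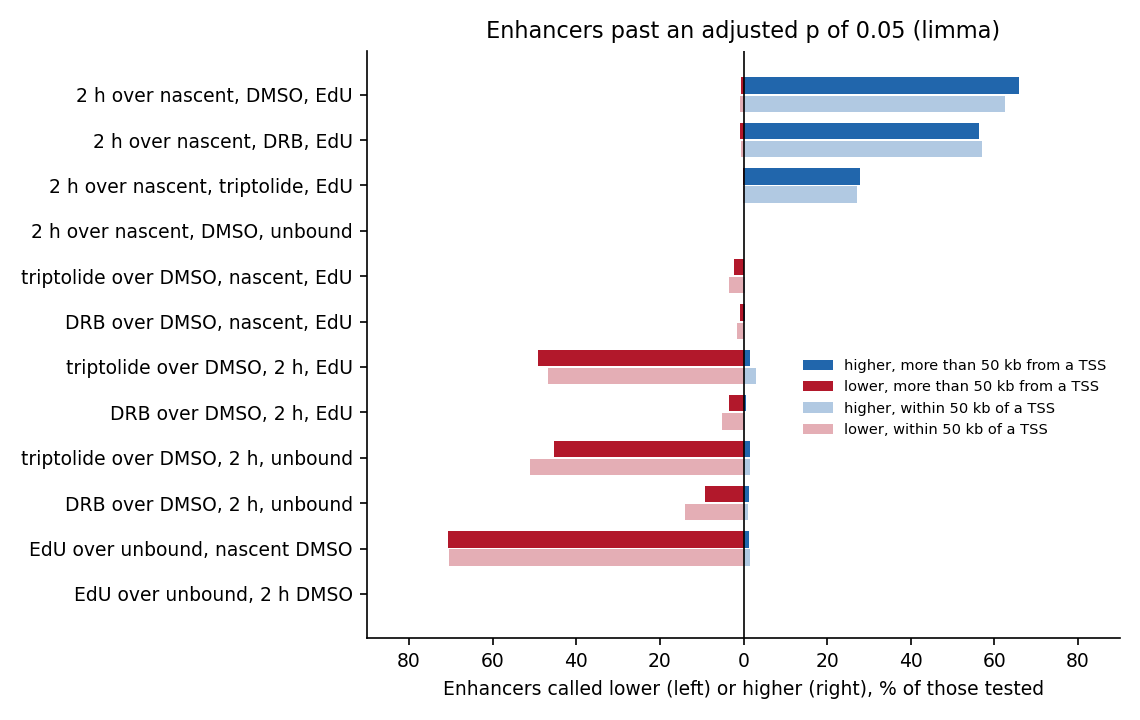
Percent of the tested enhancers called lower (left of 0) or higher (right of 0) by limma at an adjusted p of 0.05 in 12 comparisons of the inhibitor experiment, with dark bars for the solitary far enhancers and pale bars for the enhancers within 50 kb of a TSS. Of the members, 65.9% were higher at 2 h than in nascent DMSO chromatin and 49.2% were lower with triptolide at 2 h, against 3.56% lower with DRB at 2 h.

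Levels in the unbound fraction were also lower with the inhibitors at 2 h. With triptolide the 2 h unbound mean was 2.83, 2.62 and 2.71 RPM, against 4.32, 4.39 and 4.20 RPM with DMSO, a ratio of 0.632 compared with 0.432 in EdU chromatin. limma called 1317 of 2899 members lower and 47 higher (49.2% and 1.5% of all enhancers), with a median of -0.42 (log2) and a TMM split of 246 lower and 310 higher. At chr12:39740501-39741500 near Arl4a the unbound 2 h level was 2.65, 1.26 and 3.55 RPM with triptolide and 14.0, 12.9 and 11.4 RPM with DMSO (-2.04 ± 0.19, SE, limma adjusted p = 2.691e-12). In nascent samples, the unbound mean was 3.74, 4.02 and 3.08 RPM with triptolide and 4.24, 4.36 and 4.32 RPM with DMSO, so every triptolide library was below every DMSO library and replicate 3 was the lowest. limma called 233 members lower and 16 higher with triptolide there (11.9% and 0.717% of all enhancers). The count lower was 29 without triptolide replicate 3 and 106 without DMSO replicate 2, and TMM scaling gave 26 lower and 47 higher. In 2 h mature triptolide samples, 550 members were lower in EdU than in unbound chromatin and 34 higher (20.2% and 1.95% of all enhancers). The same contrast in 2 h DMSO samples gave none. The count lower was 356 without 2 h triptolide EdU replicate 3, and TMM scaling gave 162 lower and 137 higher.

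With DRB, the 2 h unbound mean was 3.62, 3.58 and 3.90 RPM, against 4.32, 4.39 and 4.20 RPM with DMSO. limma called 264 members lower and 38 higher (12.4% and 1.2% of all enhancers), and between 125 and 175 lower without any 1 of the 3 DMSO libraries or of DRB replicates 1 and 2. TMM scaling gave 71 lower and 165 higher. The S5P-covered member at chr13:97494501-97495500 near Enc1 was low with both drugs, at 1.38, 1.51 and 1.23 RPM with triptolide and 2.55, 2.08 and 1.53 RPM with DRB in unbound 2 h chromatin, against 9.71, 6.84 and 8.70 RPM with DMSO (-1.98 with triptolide, limma adjusted p = 1.794e-10, and -1.63 with DRB, limma adjusted p = 6.637e-07). In nascent samples, DRB gave 5 lower and 9 higher members (0.307% and 0.353% of all enhancers). The EdU against unbound contrast in DRB gave 2057 lower and 30 higher in nascent chromatin (72.3% and 1.2% of all enhancers) and 63 lower and 6 higher at 2 h (2.56% and 0.205%). In nascent triptolide chromatin it gave 1914 lower and 32 higher (65.4% and 1.67%).

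Distance from a TSS region went with the nascent peaks more than with the 2 h peaks. The share in the nascent list was 35.6% for enhancers under 5 kb from a TSS and 17.7% at 40 to 50 kb, just outside the rule. Just inside it, at 50 to 60 kb, it was 17.9% of 385 members. It was 12.4% of 972 members at 60 to 100 kb, 10.9% of 971 at 100 to 200 kb and 8.54% of 574 over 200 kb. At 2 h the shares were 69.4% at 50 to 60 kb, 63.7% at 60 to 100 kb, 71.9% at 100 to 200 kb and 72.3% over 200 kb. The median difference between 2 h and nascent DMSO chromatin was 0.93, 1.01, 1.17 and 1.35 (log2) in those 4 bins of members. The nascent DRB minus DMSO median was -0.14, -0.08, -0.06 and 0.03, and -0.26 for enhancers under 5 kb. These medians are of centres alone, and the flanks, which also moved with nascent DRB, were not measured by bin. The 2 h triptolide minus DMSO median was -0.70, -0.72, -0.79 and -0.75 in the 4 bins and -0.74 under 5 kb. The mean 2 h DMSO EdU level was 4.34, 4.08, 4.37 and 4.41 RPM in the same bins and the mean nascent level 1.21, 1.07, 0.994 and 0.898 RPM. Among the members, the mature level thus varied little with distance while the nascent level was lower in each farther bin. Among the nearer enhancers the 2 h level also differed with distance, at 5.55 RPM under 5 kb and 4.40 RPM at 40 to 50 kb. Their nascent means were 1.77 and 1.19 RPM. These bins are descriptions, with no test between them.

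**Figure D5:**
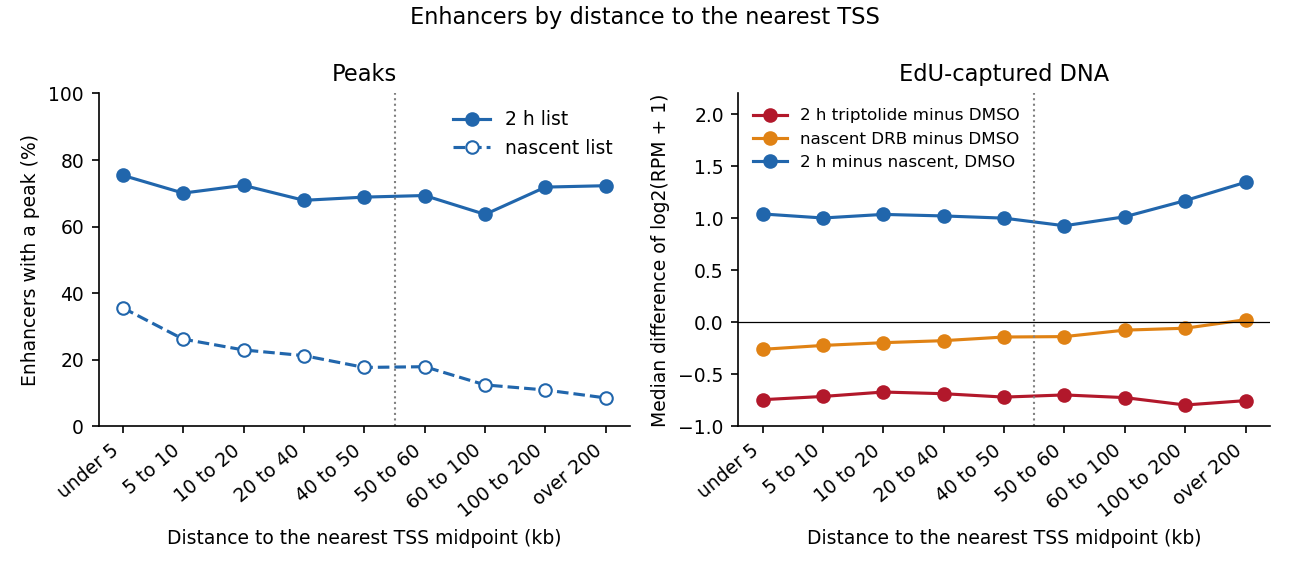
Enhancers in 9 bins of distance from the nearest TSS region in kb (horizontal axes), with the dotted line at 50 kb and the solitary far enhancers to its right. On the left, the share with a peak (percent) is 35.6% under 5 kb and 8.54% over 200 kb in the nascent list and between 63.7% and 75.4% in every bin in the 2 h list; on the right, the median difference of log2(RPM + 1) in EdU chromatin is shown for 3 comparisons.

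The 5 members with the highest unbound DMSO level were near Rybp, Nkain1, Manba, Bmpr1b and Dll1. The one at chr6:100378001-100379000, 90.91 kb from the start of Rybp, a Polycomb repressive complex subunit gene, stood at 32.8, 33.1 and 23.5 RPM in 2 h DMSO EdU libraries and 5.77, 6.56 and 6.61 RPM in nascent DMSO EdU libraries. It gained 2.06 ± 0.27 (log2, SE, limma adjusted p = 3.69e-11) and, at 12.4, 4.66 and 5.58 RPM in 2 h triptolide libraries, stood below every 2 h DMSO library. The member at chr17:15247501-15248500, 128.9 kb from the start of the Notch ligand gene Dll1, had 3.17, 7.45 and 3.46 RPM in 2 h triptolide and 25.1, 28.4 and 22.4 RPM in 2 h DMSO libraries (-2.28, limma adjusted p = 5.682e-11). The S5P-covered members near Nkain1 (chr4:130520001-130521000) and Manba (chr3:135546501-135547500) fell with triptolide by 1.18 and 1.03 on the log2 scale (limma adjusted p = 6.87e-05 and 0.0007245).

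Of 93 listed stem cell and developmental genes, 37 were the nearest gene of at least 1 member, and 70 members had such a neighbour. Foxp1 had 6 members, and Myc, Smad7, Sall1, Jarid2 and Sox2 had 4 each. limma called 42 of the 70 higher at 2 h than in nascent DMSO chromatin and 0 lower, against 63.6% and 0.855% of all enhancers, with a median of 0.98 (log2) against 1.12 over all members. With triptolide at 2 h, 23 were lower and 5 higher (47.6% and 2.52% of all enhancers), with a median of -0.52 (log2), and with DRB at 2 h 1 was lower (4.57% of all enhancers). Of the 70, 13 were in the nascent list, 38 in the 2 h list and 18 in none of the 5 lists.

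The member at chr12:86501501-86502500, within Esrrb, an orphan nuclear receptor gene of the pluripotency network, carried an S5P peak. It stood at 17.3, 13.7 and 13.6 RPM in 2 h triptolide, 21.5, 17.6 and 19.6 RPM in 2 h DMSO and 5.19, 4.54 and 3.97 RPM in nascent DMSO EdU libraries. Its gain between nascent and 2 h DMSO chromatin was 1.89 ± 0.27 (log2, SE, limma adjusted p = 3.535e-10), and its triptolide difference at 2 h was -0.38 (limma adjusted p = 0.2255). The member at chr11:18957001-18958000, within the homeobox gene Meis1, had 5.76, 5.28 and 4.52 RPM in 2 h triptolide, 18.7, 25.2 and 25.7 RPM in 2 h DMSO and 2.31, 3.03 and 2.12 RPM in nascent DMSO libraries. Unlike the Esrrb member, its triptolide and DMSO libraries at 2 h stood far apart, with a difference of -1.96 (log2, limma adjusted p = 3.187e-08). The difference between these 2 members was not tested.

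Among the other listed members, chr13:44678001-44679000 near Jarid2, which encodes a partner of Polycomb repressive complex PRC2, fell with triptolide by 1.61 (log2, limma adjusted p = 8.393e-07) and with DRB by 0.97 (limma adjusted p = 0.02629) at 2 h, the one listed member called lower with DRB in 2 h EdU chromatin. Those near Eomes (chr9:118406001-118407000) and Zfp281 (chr1:136569501-136570500) fell with triptolide by 1.22 and 1.00 on the log2 scale (limma adjusted p = 0.0007172 and 0.002934). The member near Nr2f1 (chr13:78427501-78428500) had a difference of -0.55 that missed the threshold (limma adjusted p = 0.1003).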

How the data were processed

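The authors deposited a table of log2(RPM + 1) in 1 kb windows every 500 bp for the inhibitor experiment, log2 values of 5 kb regions for the spike-in experiment, and peak positions combined per group. Trim Galore 0.4.2, Bowtie2 2.2.6.2 and the build mm10 are named, per the submitters' processing notes. No source names the tool behind the peaks. The log2 step was undone, and dividing RPM by its smallest step gave whole reads (within 0.1 read) for 100.0% of values.

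Each enhancer was measured in the window at its midpoint. limma 3.58.1 in R 4.3.3 (trend) was fitted to log2(RPM + 1) of all groups of a fraction together, or of both fractions for EdU against unbound, on every enhancer with a value over 0 in 3 or more libraries (2 or more in the spike-in table). p-values were adjusted over all enhancers tested, with a threshold of 0.05. This kept 2893 members in the EdU fits, 2899 in the others and 2900 in the spike-in fit. In all, 21 comparisons were made. The labels do not say that replicates are separate cultures, and the p-values then reflect only how much these libraries vary. Wilson intervals cover counting error only.

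For each comparison the members named were the first in each direction by log2 difference among those called with groups that do not overlap, plus the 5 highest in unbound DMSO chromatin and members next to listed genes. Members, lists and rules were chosen with earlier results of these data known, and promoters shown were picked after their values were seen. The nearest gene is by start, where 18255 of 21883 RefSeq coding genes took it from a TSS region within 1000 bp and 2801 from the promoter table, and some of these starts lie nearer than 50 kb because the distance rule used the TSS regions. Alternatives were another pseudocount, no filter, scaling to windows over 1000 bp from any peak, the mean over 5 kb, limma-voom with TMM or with library totals (added after seeing the data, as were those for unbound nascent triptolide and for EdU against unbound at 2 h in triptolide), TSS windows in the fit, a replicate block, a fit of the compared groups alone, leaving out each library, and other overlap rules. Enhancer sequence was not analysed here.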

Additional observations from a re-analysis of the deposited data

Results flagged for a closer look

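The effect of triptolide differed between 2 h and nascent EdU chromatin for 304 members called negative and 4 called positive by the limma test of the difference of effects (percentages over all enhancers are given in the report). The 3 largest negative ones were at chr17:51262501-51263500 near Tbc1d5 (-2.76, log2), chr4:47724501-47725500 near Sec61b (-2.69 ± 0.50, SE, limma adjusted p = 0.000394) and chr7:98770001-98771000 near Wnt11 (-2.56 ± 0.51, SE, limma adjusted p = 0.0005991). At the Sec61b member the levels were 1.44, 1.24 and 0.532 RPM in 2 h triptolide, 8.89, 10.4 and 8.57 RPM in 2 h DMSO, 1.04, 1.36 and 0.360 RPM in nascent triptolide and 0, 1.51 and 0.264 RPM in nascent DMSO libraries. At the Wnt11 member they were 0.288, 0.310 and 0.798 RPM in 2 h triptolide, 5.21, 5.76 and 6.08 RPM in 2 h DMSO, 1.74, 0.905 and 1.62 RPM in nascent triptolide and 0.577, 1.01 and 1.06 RPM in nascent DMSO libraries. In each of these members the 2 h DMSO libraries were the ones that stood apart. Their nascent DMSO levels were 0 to 1.51 RPM. At the Tbc1d5 and Wnt11 members, but not at the Sec61b member, the highest nascent triptolide library lay above every nascent DMSO library. The part of low nascent levels in these differences of effects was not tested. With log2(RPM + 0.25), 8 members were called negative, so the 304 calls depend on the scale. A member of the opposite sign, at chr3:34748001-34749000 near Sox2, had a difference of effects of 1.69 (log2). The effect of DRB differed for 1 member, at chr15:92703501-92704500 near Pdzrn4 (-2.33, log2).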

How the results depend on the processing

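Of 978 recomputed values of 68 results on named members, 908 kept direction and side of the threshold, 68 kept direction but missed it, and 2 turned round in the mean over 5 kb: the DRB gain of chr6:54094501-54095500 near Chn2 (0.4846) and the nascent EdU minus unbound difference of chr5:100340501-100341500 near Sec31a (-0.0116). Counts of members called that moved by over 1.5 times follow, and the cause was not tested unless named. TMM in limma-voom centres on the enhancers, and gave 172 higher at 2 h than in nascent DMSO, 142 in triptolide and 183 in DRB chromatin, 0 lower in nascent triptolide and in nascent DRB, 265 lower with triptolide and 28 with DRB at 2 h, 246 and 71 in unbound chromatin, 26 in unbound nascent triptolide, 292 in nascent EdU against unbound, 2 at 2 h and 162 at 2 h in triptolide, and 2 and 0 for the triptolide and DRB differences of effects. The triptolide difference of effects otherwise gave 8 with log2(RPM + 0.25), 182 unfiltered, 912 scaled to windows away from peaks, 640 over 5 kb, 34 with library totals in limma-voom and 96 with TSS windows in the fit. The DRB difference of effects gave 0, 9 (scaled), 31 (5 kb), 0 (library totals) and 0 (groups alone), the first with log2(RPM + 0.25). Nascent triptolide gave 36 unfiltered, 41 over 5 kb, 36 with library totals, 104 with TSS windows and 26 with the groups alone, and nascent DRB 12 unfiltered, 1 with library totals and 0 with the groups alone. DRB at 2 h gave 0 with log2(RPM + 0.25), 47 unfiltered, 434 scaled, 317 over 5 kb, 165 with library totals, 42 with TSS windows and 273 with the groups alone. Unbound DRB at 2 h gave 446 scaled, 166 with TSS windows and 398 with the groups alone, and EdU against unbound at 2 h in DMSO 21 scaled, 10 over 5 kb, 2 with library totals and 2 with the groups alone. The spike-in count was 815 when centred on the median enhancer. The nascent peak share was 15.4% over 5 kb, and the 2 h share 76.6% over 5 kb and 66.6% with at least 0.5 of a peak required.

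Leaving out 1 library gave 1742 to 1833 higher at 2 h in DMSO, 570 to 744 in triptolide and 1477 to 1532 in DRB, 21 to 50 lower in nascent triptolide, 4 to 35 in nascent DRB, 1121 to 1317 with triptolide and 23 to 55 with DRB at 2 h, 137 to 300 and 0 to 4 for the triptolide and DRB differences of effects, 1098 to 1227 and 125 to 205 lower in unbound triptolide and DRB at 2 h, 1943 to 1990 lower in nascent EdU against unbound, 0 to 1 at 2 h, 356 to 530 at 2 h in triptolide, 29 to 246 lower in unbound nascent triptolide, 0 in unbound 2 h against nascent, and 0 to 2389 in the spike-in values. With the replicate number as a block, none of the 17 counts it was run for moved by over 1.5 times: 1917 were higher at 2 h in DMSO, 1437 lower with triptolide and 116 lower with DRB at 2 h, 320 for the triptolide difference of effects, 366 lower in unbound DRB and 1482 higher in the spike-in values. Deviations from the group mean correlated at -0.0236 to 0.09 (median 0.0236) between EdU libraries of the same number and at a median of -0.00893 between those of different numbers. In unbound libraries the values were -0.0175 to 0.26 (median 0.142) and -0.0766, and between EdU and unbound libraries 0.0162 to 0.177 (median 0.0532) and -0.0327. Not every pair was over 0.1, so the numbers were not taken as pairs. EdU and unbound libraries of 1 number may be fractions of the same sample. The main EdU against unbound tests treated them as independent, which is a limit of those tests. Depth limits single members in nascent EdU libraries, where 11.2 to 28.7% of members had no read in a DMSO library.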

Other observations

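Solitary far enhancers were unevenly spread over the chromosomes. They made up 198 of the 438 enhancers of chromosome 13 (45.2%) and 130 of the 562 of chromosome 11 (23.1%), the highest and lowest shares, with 73 of 245 (29.8%) on the X chromosome. Of the members, 1234 (42.5%) lay within the span of a RefSeq coding gene and 336 (11.6%) within that of a long non-coding RNA gene, against 50.2% and 10.6% of the enhancers within 50 kb of a TSS, and 1377 members (47.4%) lay in neither.

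In unbound 2 h chromatin, the largest increase with triptolide was at chr2:116400001-116401000 near the homeobox gene Meis2, with 6.33, 8.57 and 8.33 RPM with triptolide and 3.37, 3.002 and 4.31 RPM with DMSO (0.94, log2, limma adjusted p = 1.308e-05). The S5P list covered 2.08% of the members at 50 to 60 kb from a TSS region and 0.174% of those over 200 kb.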
